A study of Mus musculus with 14 samples.

Results

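The 40 genes described here encode the transporters and enzymes of glycolysis, gluconeogenesis and the pentose phosphate pathway, together with the proteins that admit pyruvate to the mitochondrion. Members were taken by gene name from a table of 46946 genes, every one of them was found, and all 40 passed the filter on low counts. RNA was sequenced from thymus of mice whose T-cell acute lymphoblastic leukaemia (T-ALL) was driven by Lmo2, a transcription cofactor of early blood cells that healthy thymocytes switch off, and from healthy thymus. All mice were on a mixed C57BL/6;CBA background. The Rosa26-Lmo2+Sca1-Cre model (3 mice, 9 months old; Sca1-Cre below) is one in which Cre under the Sca1 promoter opens a Rosa26 allele that carries Lmo2 and eGFP, so that stem and progenitor cells and all blood cells derived from them keep Lmo2. In Sca1-Lmo2 mice (n = 4, 7 to 8 months) the Sca1 promoter drives a TdTomato-Lmo2 transgene directly, with the aim of restricting Lmo2 to stem and progenitor cells, although a mosaic of thymic T cells was described as Lmo2-positive too. The same Rosa26 allele was opened by Mb1-Cre in pro-B cells of Rosa26-Lmo2+Mb1-Cre mice (n = 2, 20 months; Mb1-Cre below) and by Aid-Cre in germinal centre B cells of a lone Rosa26-Lmo2+Aid-Cre mouse (22 months; Aid-Cre below). WT mice (n = 4) were 4 months old, so that age and genotype cannot be told apart in any comparison with them, nor between the models, whose ages do not overlap either. The labels name flash-frozen thymus as the material, whereas the methods name blasts. In bulk RNA, fewer cells of a type and less RNA per cell cannot be told apart.

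Glycolysis splits glucose into pyruvate, which lactate dehydrogenase reduces to lactate or which enters the mitochondrion to be oxidised by pyruvate dehydrogenase. Gluconeogenesis runs the chain in reverse with enzymes of its own at the irreversible steps, and the pentose phosphate pathway branches off glucose phosphate to make NADPH and ribose for nucleotides. Proliferating thymocytes and leukaemic T cells are known for rapid uptake of glucose and release of lactate even with oxygen present, and several isozymes of each step exist whose use differs between resting and dividing cells.

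Libraries held 42985130 to 47667663 counts each, and the members took 0.512 to 0.66% of the counts in the WT libraries and 0.604 to 1.22% in the 10 tumours. Lmo2 itself stood at 1.63 to 4.43 CPM (counts scaled to library size by TMM) in WT and at 5.83 to 10.1 CPM in Sca1-Cre, 10.2 to 17.6 in Sca1-Lmo2, 3.96 and 6.99 in Mb1-Cre and 22.2 in Aid-Cre. The lower Mb1-Cre library lay inside the WT range. Every Sca1-Lmo2 library was above every Sca1-Cre library, though only by 10.2 against 10.1 CPM where they come closest. The paper reports that leukaemic cells of Sca1-Lmo2 mice had lost Lmo2, by staining, PCR and Western blot, while some non-tumour T cells kept it. It reports Lmo2 protein in Sca1-Cre tumours. These bulk levels therefore do not give the Lmo2 level of the leukaemic cells. The third Sca1-Cre library stands apart: 1.14% of its counts fell on genes outside the tested set, against 0.103 to 0.209% in the other libraries, and it was the lowest of the 10 tumours for 14 of the 40 members. The members that were called only without it are listed below. T lineage markers were present in every library, their summed level being 4070 to 8800 CPM in tumours and 11600 to 13300 CPM in WT. Markers of myeloid cells (14 genes) summed to 624 to 1550 CPM in Sca1-Cre, 347 to 1540 in Mb1-Cre, 162 to 338 in WT, 128 to 243 in Sca1-Lmo2 and 584 in Aid-Cre, with 6 of 14 higher in Sca1-Cre, 7 in Mb1-Cre and 0 in Sca1-Lmo2 against WT. B cell markers (8 genes) summed to 8.5 to 13 CPM in Mb1-Cre, 16.8 to 53 in Sca1-Cre, 16.5 to 41 in Sca1-Lmo2, 65.6 in Aid-Cre and 53.2 to 98.9 CPM in WT. Of 7 tested thymic epithelial markers 3 fell in Sca1-Cre, 6 in Sca1-Lmo2 and 1 in Mb1-Cre, and all 8 summed to 10.7 to 39.1 CPM in Sca1-Lmo2, 21.9 to 30.7 in Mb1-Cre and 22.6 to 96.1 in Sca1-Cre against 55.4 to 75.5 in WT. Of 6 tested markers of stroma and endothelium, 5 rose and 1 fell in Sca1-Cre (median log2 change 3.52), 3 rose and 1 fell in Mb1-Cre (1.96) and 2 rose in Sca1-Lmo2 (0.28). All 9 together summed to 113 to 157 CPM in Sca1-Cre, 88.4 to 94.9 in Mb1-Cre, 117 to 126 in WT and 125 to 197 in Sca1-Lmo2. Pecam1 was the largest part of each sum, at 64.4 to 73.3, 71.4 to 72.4, 111 to 120 and 115 to 149 CPM in these groups. Col1a1 and Mgp of stroma, and Cd14 and Mpo of the myeloid list, were under 1 CPM in every WT library and passed the filter on low counts through the tumours. Psmb11 and Prss16 of thymic epithelium were under 1 CPM in every tumour and passed it through WT. The counts and medians of these marker lists are therefore given as a description. The part of these other cells in the values below was not tested.

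Enzymes at most steps from glucose to pyruvate were higher in the leukaemias than in healthy thymus. Hk2, Gpi1, Tpi1, Gapdh, Pgam1 and Pkm of the glycolytic chain rose in all 3 models tested, while Pdk1, a kinase that switches off pyruvate dehydrogenase, fell in all 3. In Sca1-Cre against WT, 10 members rose, 1 fell and 29 did not pass the test, where 16.5% of all 17087 genes tested were higher and 10.4% lower. In Sca1-Lmo2 against WT, 14 rose, 3 fell and 23 did not pass, beside 12.1% higher and 10.2% lower over all genes. In Mb1-Cre against WT, 17 rose, 3 fell and 20 did not pass, beside 19.7% higher and 15.4% lower. Each of the counts that rose includes Fbp1, which was under 1 CPM in WT and passed the filter on low counts through the tumours alone, so that its call lends no support to a count. The median log2 fold change of the members was 0.54, 0.48 and 0.65 in these comparisons, and that of all genes was 0.06, 0.05 and -0.01. The 3 comparisons use the same WT libraries and are not independent of each other. A call here is an adjusted p under 0.05 in the quasi-likelihood test of edgeR, and a log2 fold change is followed by ± its standard error (SE).

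The count in Sca1-Cre turned on single libraries. Without its replicate 3, 20 members were called (18 higher, 2 lower; 5019 genes in all instead of 4589), and without its second library 5 (3 higher, 2 lower; 2822 genes). Without WT replicate 3 it was 6 (2194 genes), and without WT replicate 4 it was 5 (1970 genes), so that calls over all genes fell in these settings too. The members called in Sca1-Cre only without its replicate 3 were Slc2a1 (log2 0.65), Pfkl (0.85), Aldoa (1.48), Pgk1 (0.95), Eno1 (1.05), Ldha (1.13), Mpc1 (0.66), Mpc2 (1.08), Tkt (1.33) and, as lower, Pfkfb2 (-0.87), with adjusted p of 0.00828 to 0.0413, and Bpgm was no longer called. Scaled by library totals in place of TMM, a change that shifted the all-gene median to -0.33 in Sca1-Cre, -0.14 in Sca1-Lmo2 and -0.46 in Mb1-Cre, the split in Sca1-Cre was 4 higher and 3 lower, the lower ones being Slc16a1, Pfkfb2 and Pdk1, and over all genes 1577 were higher and 2828 lower. By library totals Sca1-Lmo2 had 14 members higher and 2 lower (1352 and 1717 of all genes), and Mb1-Cre 10 higher and 3 lower (1828 and 3546 of all genes). The count in Mb1-Cre was 8 without its second library (1607 genes instead of 6001), 13 without WT replicate 3 (4312) and 12 without WT replicate 4 (4042). That in Sca1-Lmo2 was 10 without WT replicate 1 or 4 (2362 and 2230 genes instead of 3815) and 11 without its replicate 3 or WT replicate 3 (2368 and 2469). In Sca1-Cre only the call of Pdk1 held under every alternative setting run (16 settings). In Sca1-Lmo2 those of Hk2, Gpi1, Pfkl, Gapdh, Pkm, Pdk1, Fbp1, Pgd and Tkt did so (18 settings). In Mb1-Cre those of Tpi1, Gapdh, Pgk1, Pkm, Ldha and Tkt did so (15 settings). Fbp1, which passed the filter through the tumours alone, is named there as a description.

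**Figure D1:**
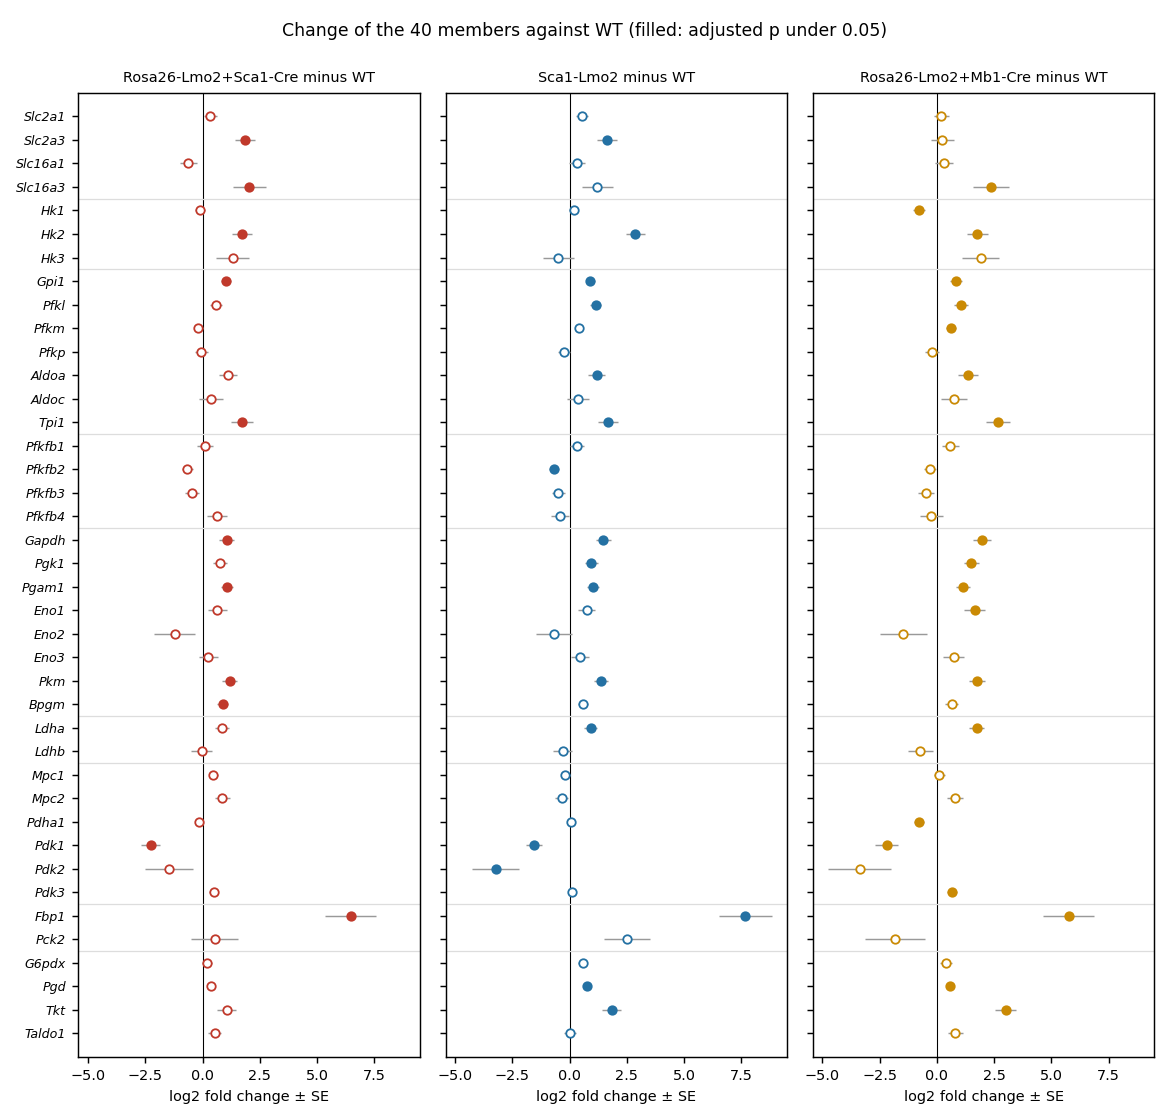
Log2 fold change with its SE for each of the 40 members against WT, one panel per model, with filled points for an adjusted p under 0.05 and grey lines between roles. Filled points number 11 in Sca1-Cre, 17 in Sca1-Lmo2 and 20 in Mb1-Cre, and Fbp1 lies farthest to the right in every panel.

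Glucose and lactate cross the membrane through carriers, of which Slc2a1 (GLUT1) and Slc2a3 (GLUT3) import glucose while Slc16a1 (MCT1) and Slc16a3 (MCT4) carry lactate. Slc2a3 stood at 18, 19, 24.2 and 25.1 CPM in WT, 140, 72 and 22.4 in Sca1-Cre, 97.3, 57.4, 62.8 and 52.2 in Sca1-Lmo2, 30.6 and 20.4 in Mb1-Cre and 58.7 in Aid-Cre. All 4 Sca1-Lmo2 libraries, the Aid-Cre library and 2 of 3 Sca1-Cre libraries lay above the WT range, whereas the third Sca1-Cre and 1 Mb1-Cre library lay inside it. Its log2 fold change was 1.86 ± 0.45 (adjusted p = 0.0145) in Sca1-Cre, 1.64 ± 0.43 (adjusted p = 0.0183) in Sca1-Lmo2 and 0.24 ± 0.51 (adjusted p = 0.732) in Mb1-Cre, where it turned to -0.19 by library totals and -0.08 without the first Mb1-Cre library. The call in Sca1-Cre ended without its first library (log2 1.13, adjusted p = 0.0685), and that in Sca1-Lmo2 without its first library, WT replicate 1 or WT replicate 2 (adjusted p 0.0507 to 0.0543). Slc2a1 was not called in any model: it changed by 0.34 ± 0.28 (adjusted p = 0.368), 0.52 ± 0.26 (adjusted p = 0.17) and 0.19 ± 0.32 (adjusted p = 0.654) on the log2 scale in Sca1-Cre, Sca1-Lmo2 and Mb1-Cre, although 9 of 10 tumours lay above the WT range of 13.9 to 17.7 CPM and the third Sca1-Cre library, at 10.8 CPM, lay below it. Without that library the change in Sca1-Cre was 0.65 (adjusted p = 0.0413), and scaling by library totals turned the change in Sca1-Cre to -0.17 and that in Mb1-Cre to -0.27. A gene that overlaps Slc2a1 held 0.81 times its counts, so its level is uncertain.

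Slc16a3, the lactate exporter with low affinity that is typical of strongly glycolytic cells, stood at 4.05, 3.49, 3.43 and 2.78 CPM in WT and at 5.37, 28.8 and 8.67 in Sca1-Cre, 5.38, 1.86, 4.37 and 20.3 in Sca1-Lmo2, 18.2 and 17.2 in Mb1-Cre and 21.5 in Aid-Cre. The Sca1-Lmo2 libraries were split, with 1 of 4 near 20 CPM and another below the WT range. It rose by 2.05 ± 0.71 (adjusted p = 0.0495) in Sca1-Cre and 2.36 ± 0.77 (adjusted p = 0.0326) in Mb1-Cre, and did not pass in Sca1-Lmo2. Without the second Sca1-Cre library, the highest, the change in Sca1-Cre was 1.03 (adjusted p = 0.301), the call there also ended without any 1 WT library (0.0755 to 0.118), and in Mb1-Cre it ended when any 1 of the 6 libraries was left out (0.052 to 0.122). Slc16a1 ranged from 52.6 to 222 CPM in tumours around a WT range of 113 to 161 CPM and was not called.

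Hexokinases trap glucose as glucose phosphate, Hk1 being the widespread form, Hk2 the inducible form of muscle, fat and tumours, and Hk3 a form of myeloid cells. Hk2 was low in WT at 2.07, 2, 2.75 and 2.14 CPM and stood at 8.58, 10.9 and 2.62 in Sca1-Cre, 22.2, 15.1, 15.3 and 12.9 in Sca1-Lmo2, 5.42 and 9.89 in Mb1-Cre and 13.8 in Aid-Cre. In all, 9 of 10 tumours lay above every WT library, the exception being the third Sca1-Cre library, which fell inside the WT range. Hk2 rose by 1.72 ± 0.42 (adjusted p = 0.0152) in Sca1-Cre, 2.87 ± 0.42 (adjusted p = 0.00157) in Sca1-Lmo2 and 1.77 ± 0.46 (adjusted p = 0.013) in Mb1-Cre on the log2 scale, and the call ended in Sca1-Cre without its second library (1.32, adjusted p = 0.0596) and in Mb1-Cre without its second (1.27, adjusted p = 0.159). Hk1 was the most abundant hexokinase, at 62.5, 70.9, 73 and 70.8 CPM in WT, 72.2, 45 and 76.3 in Sca1-Cre, 94.6, 85.2, 68.9 and 62.6 in Sca1-Lmo2, 45.9 and 34.1 in Mb1-Cre and 65.5 in Aid-Cre. Of the 3 models it was called only in Mb1-Cre, where it fell by 0.79 on the log2 scale (SE 0.25, adjusted p = 0.0302), and without the second Mb1-Cre library the change was -0.59 (adjusted p = 0.235); the call also ended without WT replicate 2, 3 or 4 (0.0553 to 0.0639). Hk3 stood at 1.2, 0.675, 1.19 and 1.21 CPM in WT, 0.96, 2.58 and 4.44 in Sca1-Cre, 0.868, 0.608, 0.317 and 1.25 in Sca1-Lmo2, 0.649 and 7.46 in Mb1-Cre and 4.52 in Aid-Cre, and was not called. Summed myeloid markers, whose part was not tested, were highest in the third Sca1-Cre and the second Mb1-Cre library (1550 and 1540 CPM), against 853 in the second Sca1-Cre library and 584 in Aid-Cre. In the third Sca1-Cre library S100a8 and S100a9 made up most of the sum, at 522 and 625 CPM. Among the Sca1-Cre libraries it was also highest for Adgre1, Cd14, Itgam and Mpo. It was lowest for Lyz2, Csf1r, Cd68, C1qa, C1qb, C1qc and Fcgr3.

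Promoter sequence was available for 39 of the 40 members, as the 250 bases before each RefSeq gene start. Motifs searched on both strands were CACGTG, the E-box that MYC and the carbohydrate-sensing factors of the Mlx family can bind; ACGTG, the core of the hypoxia response element, which is also contained in CACGTG; and TGGGAA, the core of Notch-bound RBPJ sites. Of the 39 members, 6 (15.4%) had CACGTG, 15 (38.5%) had ACGTG and 9 (23.1%) had TGGGAA before at least 1 start, beside 6.86%, 18.5% and 24.1% of 27025 genes. Over the 60 promoters of the members, some genes having several starts, the shares were 10%, 31.7% and 20%, beside 6.02%, 16.6% and 21.6% of 32851 promoters. The 3 promoters shown belong to members that the results turn on, Hk2 above and Ldha and Fbp1 below. They come from GRCm38.p6 in RefSeq, 5′ to 3′ in the direction of the gene, with ACGTG on either strand in capitals. Those of Fbp1 and Hk2 end before the outermost annotated start, which leaves 234 bases for Fbp1. That of Ldha ends before a RefSeq start but lies inside the gene, which is annotated from position 46841475. It was picked because it holds CACGTG, whereas the other Ldha stretch (chr7:46846832-46847081) held none of the motifs. The Fbp1 promoter (chr13:62888299-62888532, minus strand) holds none of the motifs printed in capitals. The Hk2 promoter (chr6:82774455-82774704, minus strand) holds 2 of them. The Ldha promoter (chr7:46845554-46845803, plus strand) holds 2 full CACGTG and 1 further match. A match is a string of letters and was not tested as a binding site.
Fbp1: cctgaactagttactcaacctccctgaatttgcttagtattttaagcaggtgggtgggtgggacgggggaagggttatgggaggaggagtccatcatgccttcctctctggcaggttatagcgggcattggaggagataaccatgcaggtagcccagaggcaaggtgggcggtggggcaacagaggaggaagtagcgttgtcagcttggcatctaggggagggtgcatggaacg
Hk2: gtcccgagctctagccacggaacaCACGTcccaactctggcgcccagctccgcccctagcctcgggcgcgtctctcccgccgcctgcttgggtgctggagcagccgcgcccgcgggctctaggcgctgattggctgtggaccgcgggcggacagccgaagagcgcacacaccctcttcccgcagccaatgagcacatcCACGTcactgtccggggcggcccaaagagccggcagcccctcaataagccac
Ldha: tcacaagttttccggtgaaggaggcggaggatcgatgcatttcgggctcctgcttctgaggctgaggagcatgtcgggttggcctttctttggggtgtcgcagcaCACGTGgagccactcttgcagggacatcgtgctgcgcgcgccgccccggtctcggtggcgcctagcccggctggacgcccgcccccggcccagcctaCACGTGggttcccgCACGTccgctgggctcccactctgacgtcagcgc

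In the upper part of the chain, glucose phosphate is isomerised (Gpi1), phosphorylated again by phosphofructokinase (Pfkl of liver type, Pfkm of muscle type, Pfkp of platelet type), cleaved by aldolase (Aldoa, Aldoc) and brought into a single triose form by Tpi1. Of these 7 members, 2 rose in Sca1-Cre, 4 in Sca1-Lmo2 and 5 in Mb1-Cre, and none fell. Gpi1 was higher in all 10 tumours than in any WT library, with 241, 255, 204 and 187 CPM in WT, 448, 523 and 402 in Sca1-Cre, 448, 339, 469 and 398 in Sca1-Lmo2, 490 and 298 in Mb1-Cre and 315 in Aid-Cre. It rose by 1.04 ± 0.22 (adjusted p = 0.01), 0.9 ± 0.21 (adjusted p = 0.0116) and 0.83 ± 0.25 (adjusted p = 0.0234) in Sca1-Cre, Sca1-Lmo2 and Mb1-Cre. The call in Sca1-Cre ended when library totals replaced TMM (0.63, adjusted p = 0.068), and in Mb1-Cre it ended so too (0.42, adjusted p = 0.239) and without the first Mb1-Cre library (0.42, adjusted p = 0.289), WT replicate 3 or WT replicate 4 (0.0599 and 0.0621).

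Of the 7, Tpi1 had the largest log2 change in each model. It stood at 60.7, 102, 74.2 and 45.6 CPM in WT, 163, 466 and 75.9 in Sca1-Cre, 232, 197, 269 and 201 in Sca1-Lmo2, 396 and 502 in Mb1-Cre and 303 in Aid-Cre. Every tumour but the third Sca1-Cre library exceeded the WT range. Its log2 fold change was 1.73 ± 0.47 (adjusted p = 0.0214) in Sca1-Cre, 1.67 ± 0.45 (adjusted p = 0.0208) in Sca1-Lmo2 and 2.67 ± 0.52 (adjusted p = 0.00377) in Mb1-Cre. In Sca1-Cre the call ended without the second library (0.76, adjusted p = 0.138) and without WT replicate 3 or 4 (0.0542 and 0.0659), and in Sca1-Lmo2 without its replicate 3 or WT replicate 1, 3 or 4 (0.0508 to 0.0644).

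Pfkl, at 44.5, 50.7, 38.5 and 33.9 CPM in WT, stood at 55.4, 95.8 and 38.6 in Sca1-Cre, 92.4, 68.4, 100 and 105 in Sca1-Lmo2, 88 and 84.3 in Mb1-Cre and 80.1 in Aid-Cre. It rose by 1.13 ± 0.26 (adjusted p = 0.0104) in Sca1-Lmo2 and 1.04 ± 0.3 (adjusted p = 0.0204) in Mb1-Cre, the latter call ending without either Mb1-Cre library or WT replicate 3 or 4 (0.0506 to 0.0992). Aldoa, the main aldolase of dividing cells, stood at 127, 134, 92.8 and 87.7 CPM in WT, 187, 430 and 93.4 in Sca1-Cre, 242, 191, 273 and 295 in Sca1-Lmo2, 328 and 233 in Mb1-Cre and 446 in Aid-Cre. All tumours except the third Sca1-Cre library were above the WT range. It rose by 1.18 ± 0.38 (adjusted p = 0.0413) in Sca1-Lmo2 and 1.35 ± 0.44 (adjusted p = 0.033) in Mb1-Cre. The call ended in Sca1-Lmo2 without its replicate 1, 3 or 4 or any WT replicate (0.0639 to 0.112) and in Mb1-Cre without either of its libraries or WT replicate 3 or 4 (0.0759 to 0.175). Pfkm, whose level is uncertain because the overlapping gene Senp1 held 2.54 times its counts, was called only in Mb1-Cre, at 0.63 ± 0.22 (adjusted p = 0.0437), and this call ended when any 1 of the 6 libraries was left out (0.0566 to 0.28). Pfkp lay below the WT range of 86.1 to 93.2 CPM in 7 of 10 tumours and above it in 2, and was not called. Its level is uncertain because the overlapping gene Pitrm1 held 0.676 times its counts. Aldoc was at 0.345 to 1.53 CPM throughout.

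The bifunctional enzymes Pfkfb1 to Pfkfb4 set the level of the regulatory fructose bisphosphate that activates phosphofructokinase. None of them rose in any model. Pfkfb2, at 39.4, 36.1, 39.4 and 53.6 CPM in WT, was at 23.2, 33.4, 21.1 and 27.4 in Sca1-Lmo2, all below the WT range, and fell by 0.68 on the log2 scale there (SE 0.21, adjusted p = 0.0374). The call ended in 10 of 18 alternative settings, among them leaving out its replicate 1 or 3 or any WT replicate (0.0502 to 0.118), and the overlapping gene Yod1 held 0.593 times its counts. Pfkfb3, which favours synthesis of the activator and is induced in many tumours, was below the WT range of 34.6 to 42.7 CPM in 7 of 10 tumours and above it in the Aid-Cre library at 58.8 CPM, without a call. Pfkfb4 reached 17.8 CPM in the third Sca1-Cre library against 3.6 to 7.44 CPM in the other tumours.

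The lower part of the chain yields ATP and pyruvate. Gapdh oxidises triose phosphate, Pgk1 and Pkm make ATP, Pgam1 and enolase (Eno1, the widespread form; Eno2 of neurons; Eno3 of muscle) rearrange the carbon chain, and Bpgm diverts part of it in red cells. Of these 8 members, 4 rose in Sca1-Cre, 4 in Sca1-Lmo2 and 5 in Mb1-Cre, and none fell. Divided by exon length, although the counts may include introns, Gapdh had the highest level of all members in WT, at 312 CPM per kb. It stood at 1318, 1756, 1179 and 909 CPM in WT, 2533, 3629 and 1830 in Sca1-Cre, 2903, 2588, 3763 and 5014 in Sca1-Lmo2, 4564 and 5476 in Mb1-Cre and 3015 in Aid-Cre, so that every tumour exceeded every WT library. It rose by 1.05 ± 0.35 (adjusted p = 0.0428), 1.47 ± 0.33 (adjusted p = 0.00962) and 1.96 ± 0.38 (adjusted p = 0.0038) in Sca1-Cre, Sca1-Lmo2 and Mb1-Cre. The call in Sca1-Cre was close to the threshold and ended in 10 of 16 alternative settings, among them leaving out its replicate 1 or 2 or WT replicate 1, 3 or 4 (0.0731 to 0.151). The table holds 179 near-identical copies of Gapdh, which together took 309% of its counts. With their counts added to Gapdh the change in Sca1-Cre was 0.85 (adjusted p = 0.105).

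Pkm, whose M2 form is that of dividing cells and which cannot be split into forms in these counts, stood at 454, 553, 451 and 360 CPM in WT, 1245, 1338 and 514 in Sca1-Cre, 1255, 1022, 1262 and 1138 in Sca1-Lmo2, 1971 and 1120 in Mb1-Cre and 1161 in Aid-Cre. Only the third Sca1-Cre library fell among the WT values. Pkm rose by 1.18 ± 0.33 (adjusted p = 0.0233), 1.36 ± 0.31 (adjusted p = 0.0105) and 1.76 ± 0.36 (adjusted p = 0.00484) in Sca1-Cre, Sca1-Lmo2 and Mb1-Cre, and in Sca1-Cre the call ended without its replicate 1 or 2 or WT replicate 3 or 4 (0.061 to 0.0808). Pgam1 stood at 61.9 to 84.1 CPM in WT and 82.6 to 231 CPM in tumours, and rose by 1.07 ± 0.27 (adjusted p = 0.0172), 1 ± 0.26 (adjusted p = 0.0179) and 1.13 ± 0.3 (adjusted p = 0.0145). Its call ended in Sca1-Cre without the second library (0.64, adjusted p = 0.0752) or WT replicate 4 (0.0546), in Sca1-Lmo2 without WT replicate 4 (0.0574) and in Mb1-Cre without its second library (0.137).

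Pgk1 stood at 198, 246, 213 and 177 CPM in WT, 229, 579 and 252 in Sca1-Cre, 445, 335, 448 and 380 in Sca1-Lmo2, 616 and 562 in Mb1-Cre and 399 in Aid-Cre. It rose by 0.95 ± 0.28 (adjusted p = 0.0307) in Sca1-Lmo2 and 1.5 ± 0.33 (adjusted p = 0.00615) in Mb1-Cre; in Sca1-Lmo2 the call ended without its replicate 1, 3 or 4 or WT replicate 1, 3 or 4 (0.0508 to 0.0869). Eno1 ran from 399, 487, 369 and 262 CPM in WT to 1079 and 1299 in Mb1-Cre, against 504, 1062 and 223 in Sca1-Cre, 521, 755, 590 and 675 in Sca1-Lmo2 and 620 in Aid-Cre, and rose in Mb1-Cre by 1.65 ± 0.45 (adjusted p = 0.0155), a call that ended without the second Mb1-Cre library (1.51, adjusted p = 0.108). Near-identical copies held 44.1% of the counts of Pgk1 and 66.6% of those of Eno1, so both levels are uncertain. Bpgm was above the WT range in all 10 tumours (38.4 to 91.2 against 29.3 to 37.6 CPM) and rose in Sca1-Cre by 0.88 ± 0.25 (adjusted p = 0.0237). The highest value, 91.2 CPM, was that of the third Sca1-Cre library, without which the change was 0.54 (adjusted p = 0.084); the call also ended without the second Sca1-Cre library or WT replicate 3 or 4 (0.053 to 0.0718). Erythroid markers, which accompany Bpgm in red cells, summed to 1070, 6990 and 1030 CPM in the 3 Sca1-Cre libraries and to 284 to 2430 CPM in WT. The part of red cells in the level of Bpgm was not tested. Eno2 was below the WT range of 2.25 to 3.24 CPM in 9 of 10 tumours and at 5.25 CPM in the fourth Sca1-Lmo2 library, and Eno3 ranged from 11.3 to 54.8 CPM; neither was called.

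**Figure D2:**
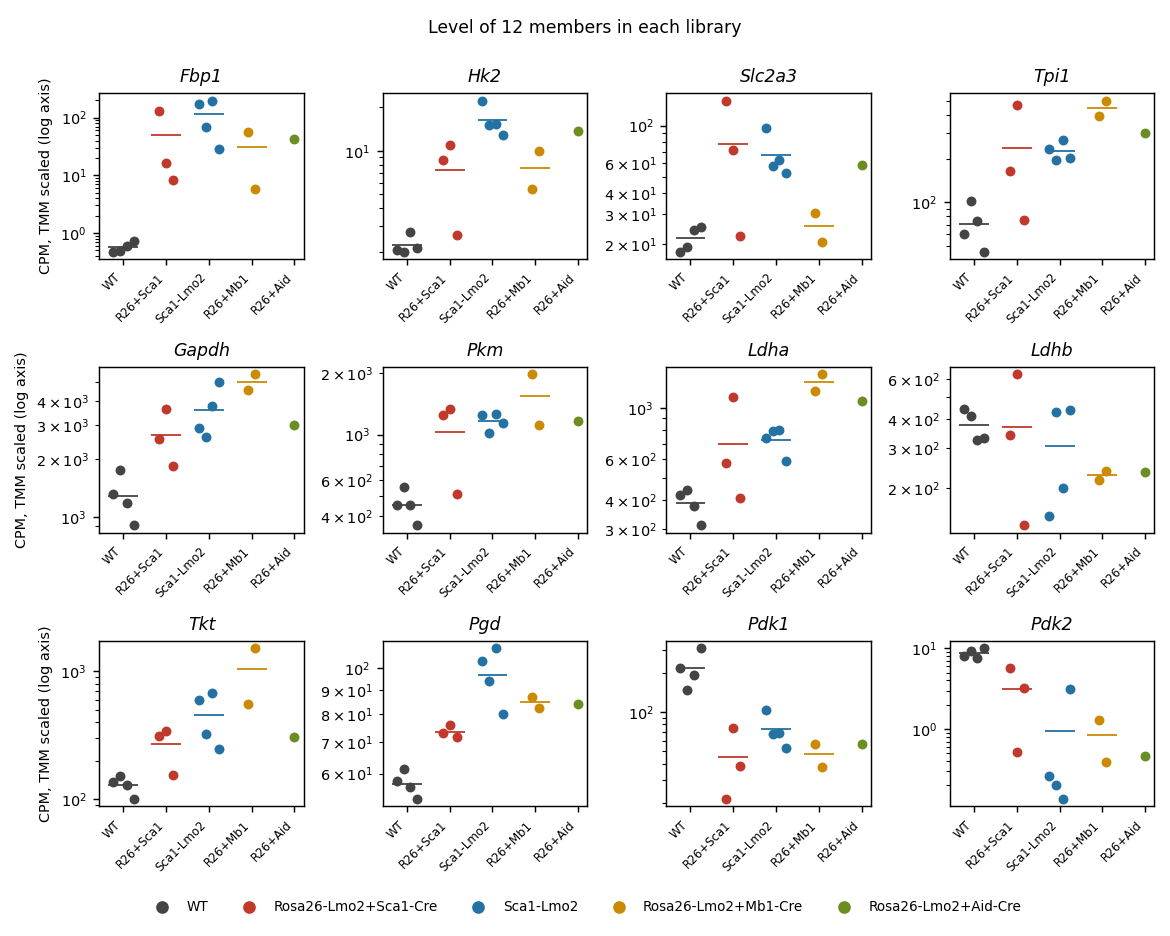
TMM-scaled CPM on a log axis for 12 members in each of the 14 libraries, with 1 point per library and a line at the mean of each group of 2 or more; axis labels shorten Rosa26-Lmo2 to R26. Fbp1 in the tumours (5.79 to 196 CPM) lies above WT (0.476 to 0.719 CPM) without overlap, Pdk1 and Pdk2 lie below WT in every tumour, and the third Sca1-Cre library falls inside the WT range for Hk2, Slc2a3, Tpi1, Pkm and Ldha.

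Lactate dehydrogenase is a tetramer of A and B chains; the A chain (Ldha) prevails in glycolytic tissue and the B chain (Ldhb) in oxidative tissue such as heart. Ldha stood at 420, 444, 378 and 312 CPM in WT, 581, 1116 and 407 in Sca1-Cre, 739, 793, 799 and 589 in Sca1-Lmo2, 1181 and 1391 in Mb1-Cre and 1072 in Aid-Cre. It exceeded the WT range in every tumour except the third Sca1-Cre library. Of the 3 promoters printed above only that of Ldha holds CACGTG, but it was picked among the Ldha starts for that motif. The log2 fold change was 0.85 ± 0.31 (adjusted p = 0.0574) in Sca1-Cre, 0.91 ± 0.29 (adjusted p = 0.0411) in Sca1-Lmo2 and 1.73 ± 0.34 (adjusted p = 0.00402) in Mb1-Cre. In Sca1-Cre it passed without the third library (1.13, adjusted p = 0.0136), and in Sca1-Lmo2 the call ended without its replicate 1, 2 or 3 or any WT replicate (0.0671 to 0.113). Ldhb stood at 442, 412, 326 and 330 CPM in WT, 340, 627 and 138 in Sca1-Cre, 151, 429, 201 and 437 in Sca1-Lmo2, 217 and 238 in Mb1-Cre and 235 in Aid-Cre, with 6 tumours below the WT range, 1 above it and no call.

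Pyruvate enters the mitochondrion through the carrier of Mpc1 and Mpc2 and is oxidised by pyruvate dehydrogenase, whose alpha chain is Pdha1 and which the kinases Pdk1, Pdk2 and Pdk3 switch off by phosphorylation. Pdk1, a target of hypoxia signalling that is also high in normal thymocytes, stood at 218, 148, 192 and 309 CPM in WT against 21.4, 75.7 and 38.1 in Sca1-Cre, 104, 68.1, 69.2 and 52.4 in Sca1-Lmo2, 56.5 and 37.7 in Mb1-Cre and 56.4 in Aid-Cre. All 10 tumours were below all 4 WT libraries. Its log2 fold change was -2.27 ± 0.42 (adjusted p = 0.00639) in Sca1-Cre, -1.56 ± 0.37 (adjusted p = 0.0121) in Sca1-Lmo2 and -2.2 ± 0.5 (adjusted p = 0.0069) in Mb1-Cre, the last of which lost its call without the second Mb1-Cre library (-1.94, adjusted p = 0.0866). In Sca1-Cre it was -2.86 without the second library. Pdk2 was likewise lower in every tumour: 8.09, 9.39, 7.6 and 10.1 CPM in WT against 5.79, 0.515 and 3.2 in Sca1-Cre, 0.26, 0.203, 0.136 and 3.13 in Sca1-Lmo2, 1.3 and 0.39 in Mb1-Cre and 0.459 in Aid-Cre. Its spread between tumours reached 42.6 times from the lowest to the highest, and only in Sca1-Lmo2 did it pass, at -3.23 ± 1.02 (adjusted p = 0.0391); this call ended without its replicate 1, 2 or 3 or any WT replicate (0.0665 to 0.0959), and without replicate 4, the highest, the change was -5.47. Pdk3, at 15.9 to 21.8 CPM in WT, rose in Mb1-Cre, to 25.5 and 32.2 CPM, by 0.66 ± 0.22 (adjusted p = 0.0369), and the call ended without the second Mb1-Cre library or WT replicate 1, 3 or 4 (0.066 to 0.263).

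Pdha1 stood at 115, 121, 129 and 133 CPM in WT, 110, 131 and 98.8 in Sca1-Cre, 144, 147, 97.7 and 135 in Sca1-Lmo2, 80 and 66 in Mb1-Cre and 78.6 in Aid-Cre. It fell in Mb1-Cre by 0.77 on the log2 scale (SE 0.21, adjusted p = 0.0164), but not past the threshold without the second Mb1-Cre library (-0.64, adjusted p = 0.149), and its level is uncertain because a near-identical copy held 146% of its counts and the overlapping Map3k15 0.595 times. Mpc1 and Mpc2 were not called against WT.

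Fbp1 encodes fructose bisphosphatase, the enzyme of gluconeogenesis that reverses the phosphofructokinase step and is best known from liver and kidney. Its promoter is printed above. It carried the largest change of all members in each of the 3 models tested. Its counts in WT were 23 to 38 per library, or 0.476, 0.496, 0.587 and 0.719 CPM. In the tumours it stood at 128, 16.6 and 8.37 CPM in Sca1-Cre, 174, 70, 196 and 28.1 in Sca1-Lmo2, 55.9 and 5.79 in Mb1-Cre and 42.4 in Aid-Cre, so that every tumour was above every WT library while the tumours differed among themselves by up to 33.8 times. Since Fbp1 passed the filter through the tumours alone, its log2 fold change of 6.47 ± 1.11 in Sca1-Cre, 7.67 ± 1.15 in Sca1-Lmo2 and 5.75 ± 1.11 in Mb1-Cre is given as a description. With no filter on low counts, so that its level did not decide its entry, the change was 6.42 (adjusted p = 0.000118), 7.71 (adjusted p = 1.44e-05) and 5.67 (adjusted p = 0.000302). Means of 50.9, 117 and 30.8 CPM in these models stood against 0.57 CPM in WT, or 88.7, 204 and 53.8 times as fitted. With limma-voom the change did not pass in Sca1-Cre (5.43, adjusted p = 0.0606) or Mb1-Cre (5.12, adjusted p = 0.0722), both with the filter. Without the first Sca1-Cre library, the highest there, the log2 change was 4.44, and without the first Mb1-Cre library 3.34 or, without the second, 6.61. No annotated gene overlaps Fbp1 (ENSMUSG00000069805, chromosome 13, positions 62864753 to 62888282 on the minus strand of mm10/GRCm38) and no near-identical copy was found in the table.

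Pck2, the mitochondrial form of phosphoenolpyruvate carboxykinase, which feeds the chain from oxaloacetate, was the most variable member between tumours. It stood at 6.37, 5.68, 4.09 and 3.88 CPM in WT, 17.4, 1.48 and 3.04 in Sca1-Cre, 39.9, 0.811, 57 and 16.2 in Sca1-Lmo2, 0.533 and 2.31 in Mb1-Cre and 1.67 in Aid-Cre, with 4 tumours above and 6 below the WT range and no call. The highest tumour was 107 times the lowest.

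In the pentose phosphate pathway, G6pdx and Pgd make NADPH in the oxidative branch, while Tkt and Taldo1 exchange carbon between sugars in the non-oxidative branch. Tkt, encoding transketolase, stood at 137, 150, 129 and 100 CPM in WT, 309, 341 and 155 in Sca1-Cre, 595, 320, 670 and 248 in Sca1-Lmo2, 555 and 1516 in Mb1-Cre and 306 in Aid-Cre. Every tumour was above every WT library, the third Sca1-Cre library barely so. Tkt rose by 1.83 ± 0.4 (adjusted p = 0.00898) in Sca1-Lmo2 and 3 ± 0.46 (adjusted p = 0.00164) in Mb1-Cre and did not pass in Sca1-Cre; without the second Mb1-Cre library, at 1516 CPM, the change there was 2.1 (adjusted p = 0.0282). Pgd stood at 57.8, 61.2, 56.2 and 53.1 CPM in WT, 73, 76.1 and 71.7 in Sca1-Cre, 104, 94, 110 and 80 in Sca1-Lmo2, 87.2 and 82.6 in Mb1-Cre and 84 in Aid-Cre, again without overlap. It rose by 0.76 ± 0.14 (adjusted p = 0.00366) in Sca1-Lmo2 and 0.57 ± 0.16 (adjusted p = 0.0186) in Mb1-Cre, the latter ending without either Mb1-Cre library or WT replicate 4 (0.05 to 0.082). G6pdx, the rate-limiting dehydrogenase at the entry, was not called: its log2 change was 0.19 ± 0.22 (adjusted p = 0.541), 0.57 ± 0.2 (adjusted p = 0.0604) and 0.4 ± 0.24 (adjusted p = 0.214) in Sca1-Cre, Sca1-Lmo2 and Mb1-Cre. Without the fourth Sca1-Lmo2 library the change in Sca1-Lmo2 was 0.67 (adjusted p = 0.0284), and by library totals those in Sca1-Cre and Mb1-Cre were -0.17 and -0.08. The overlapping gene Ikbkg held 2.11 times the counts of G6pdx. Taldo1 ranged from 122 to 323 CPM in tumours and 128 to 198 CPM in WT and was not called.

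**Figure D3:**
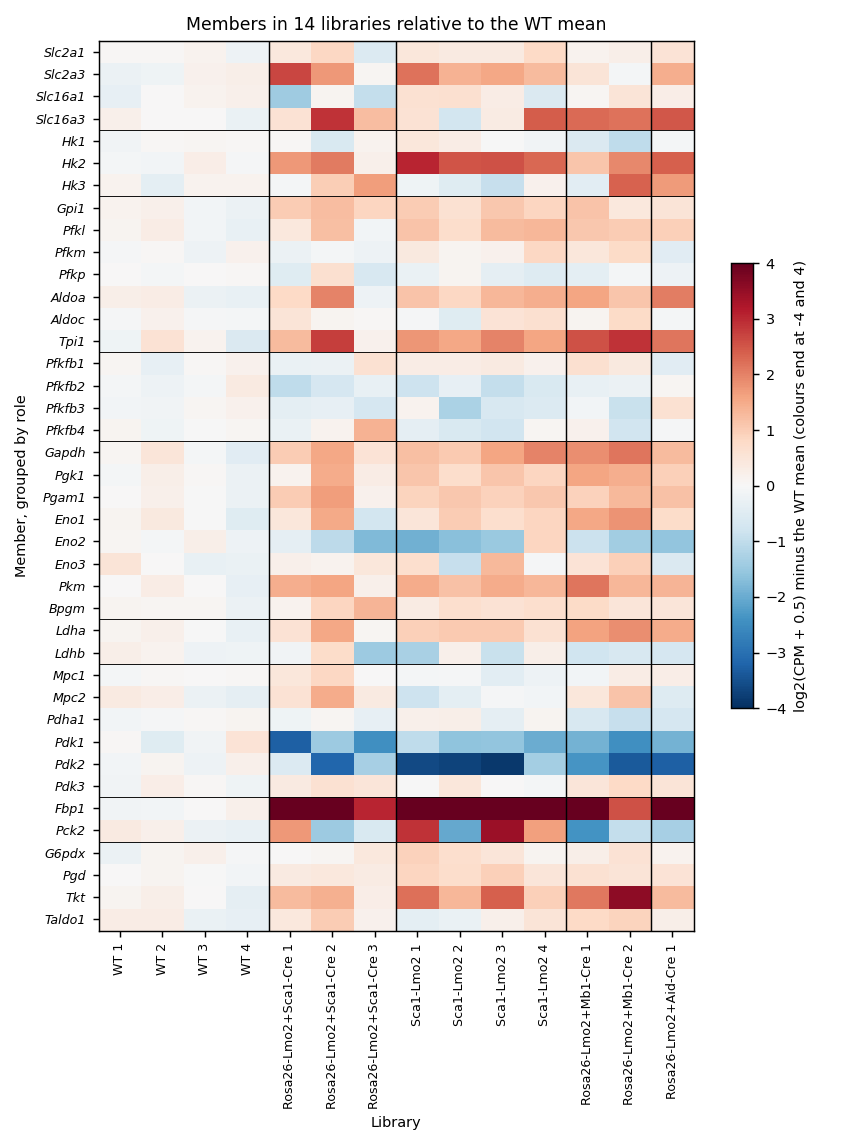
Each of the 40 members (rows, grouped by role) in the 14 libraries (columns, by group) as log2(CPM + 0.5) minus the mean of the 4 WT libraries, red above and blue below, with colours ending at -4 and 4. Gpi1, Gapdh, Pgk1, Pkm and Tkt are red in every tumour column, Pdk1 and Pdk2 are blue in all 10, and the third Sca1-Cre column is paler than its neighbours for most enzymes of the chain.

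Across the 40 members, 6 had all 10 tumour libraries above all 4 WT libraries (Gpi1, Gapdh, Bpgm, Fbp1, Pgd and Tkt) and 2 had all of them below (Pdk1 and Pdk2), where 4.95% and 7.19% of all genes tested did so. Fbp1 passed the filter through the tumours alone, so it lends no support to this count or to those that follow. Without the third Sca1-Cre library 15 members lay above and 2 below, beside 6.62% and 8.4% of all genes. Without WT replicate 2 it was 12 on either side together, for which the share of all genes was not counted. The additional 9 without the Sca1-Cre library were Aldoa, Eno1, Hk2, Ldha, Pfkl, Pgam1, Pkm, Slc2a1 and Tpi1. The single Aid-Cre library, which was not tested, was above the WT range for 23 members, below it for 11 and inside it for 6. How often all genes lay outside that range was not counted, so these numbers only describe this library.

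Ratios of isozymes within a library do not depend on how libraries are scaled, and 9 of them were compared between the 10 tumours and the 4 WT libraries by an exact two-sided permutation test, adjusted over the 9. Of these, 5 differed. Hk2 to Hk1 was 2.34 higher on the log2 scale in tumours (mean -2.61 ± 0.896 SD against -4.95 ± 0.178 SD, exact permutation, adjusted p = 0.00899), with 9 of 10 tumours above the WT range. Pfkp to Pfkl was 1.13 lower (exact permutation, adjusted p = 0.00899), all 10 tumours lying below WT with -0.72 to 0.57 against 0.76 to 1.46; its unadjusted p of 0.000999 is the smallest that these numbers of libraries allow. Ldhb to Ldha was 1.55 lower (exact permutation, adjusted p = 0.00899), again with all 10 tumours below WT, at -2.54 to -0.43 against -0.22 to 0.08. By counts, which are not divided by gene length, both chains were about equal in healthy thymus and Ldha exceeded Ldhb in each leukaemia. Per kb of exon, Ldhb stood at 240 and Ldha at 117 CPM in WT, and at medians of 151 and 241 in the tumours. In Sca1-Cre the means per kb were 235 for Ldhb and 212 for Ldha. The ratio thus shows a shift between the groups and not which chain prevails. Eno2 to Eno1 was 2.43 lower (exact permutation, adjusted p = 0.00899; 9 of 10 below) and Pfkm to Pfkl 0.73 lower (exact permutation, adjusted p = 0.0162; 9 of 10 below). Without WT replicate 4 the last of these did not pass (-0.57, adjusted p = 0.0787). The copies and overlapping genes named above enter these ratios too, among them Pitrm1 in Pfkp to Pfkl and Senp1 in Pfkm to Pfkl.

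The other 4 ratios did not pass. Slc2a3 to Slc2a1 was 0.92 higher (exact permutation, adjusted p = 0.0569; 8 of 10 above WT), Slc16a3 to Slc16a1 1.56 higher (0.0822; 7 of 10), Aldoc to Aldoa 0.9 lower (0.0933; 7 of 10 below) and Hk3 to Hk1 0.66 higher (0.489; 5 of 10 above). Slc2a3 to Slc2a1 passed without either Mb1-Cre library (0.0147 and 0.0483), Slc16a3 to Slc16a1 without the second Sca1-Lmo2 library (0.0189) and Aldoc to Aldoa without the third Sca1-Cre library (0.0483). By model, the mean log2 ratio of Ldhb to Ldha was -0.04 in WT, -1.06 in Sca1-Cre, -1.4 in Sca1-Lmo2, -2.49 in Mb1-Cre and -2.19 in the Aid-Cre library. The mean for Hk2 to Hk1 was -4.95 in WT, -3.32 in Sca1-Cre, -2.26 in Sca1-Lmo2, -2.43 in Mb1-Cre and -2.24 in the Aid-Cre library. A test of differences between models in these ratios was not made.

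**Figure D4:**
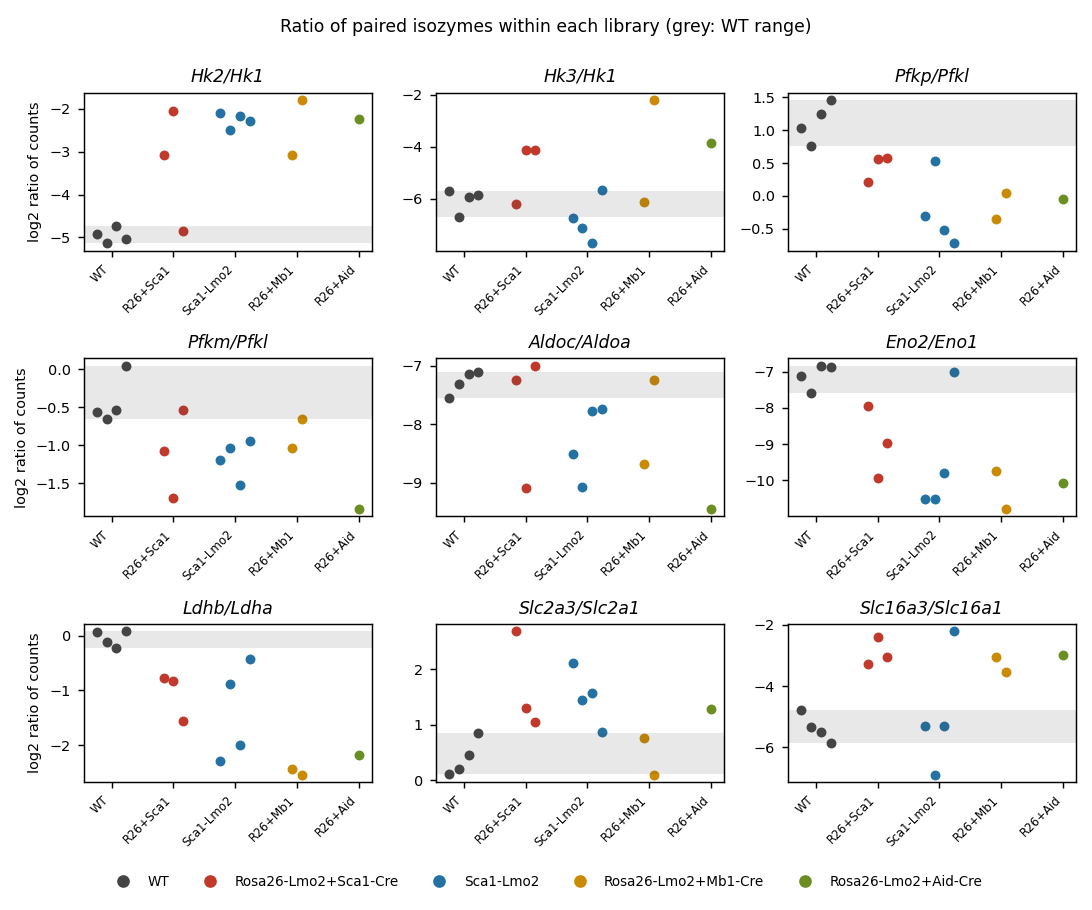
Log2 ratio of the counts of 2 isozymes (with 0.5 added to each) in every library for 9 ratios, coloured by group, with the WT range shaded grey. Points of all 10 tumours lie below the grey band for Pfkp/Pfkl and Ldhb/Ldha, and 9 of 10 lie above it for Hk2/Hk1.

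Few members were called between the leukaemia models, where calls over all genes were also fewer than against WT. In Sca1-Lmo2 against Sca1-Cre, which compares the Sca1-driven transgene with the Rosa26 allele opened by Cre, 0 members were higher and 1 was lower, beside 3.59% higher and 6.3% lower over all genes; by library totals 2 were higher and 1 lower (739 and 719 of all genes). Mpc2, a subunit of the pyruvate carrier, was the member that fell, with 19.1, 25.6, 32.6 and 31.7 CPM in Sca1-Lmo2 against 51, 95.9 and 43.7 in Sca1-Cre and no overlap (log2 -1.22 ± 0.31, adjusted p = 0.0329). The call ended without the second Sca1-Cre library (-0.8, adjusted p = 0.12) and without Sca1-Lmo2 replicate 1 or 2 (0.0953 and 0.069). Hk2 was higher in all Sca1-Lmo2 than in all Sca1-Cre libraries without passing, at 1.15 ± 0.44 (adjusted p = 0.0995). The log2 differences of the other members followed throughout were 1.2 ± 0.94 (adjusted p = 0.405) for Fbp1, 0.18 ± 0.33 (adjusted p = 0.747) for Pkm, 0.06 ± 0.31 (adjusted p = 0.92) for Ldha, 0.18 ± 0.28 (adjusted p = 0.698) for Slc2a1, -0.21 ± 0.45 (adjusted p = 0.781) for Slc2a3 and 0.39 ± 0.22 (adjusted p = 0.245) for G6pdx. The signs for Pkm, Ldha, Slc2a1 and Slc2a3 turned with single libraries left out.

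In Mb1-Cre against Sca1-Cre, which share the Rosa26 allele and differ in the cell in which it was opened and in age (20 against 9 months), 0 of 40 members were called by edgeR, where 0.123% of all genes were higher and 0.0878% lower (10 and 2 genes by library totals). Unadjusted, 7 members had p under 0.05 in the edgeR test. The share of all genes that did so was not counted, so this number only describes the members. DESeq2 called 3 members and 1333 of all genes. Changes were -0.72 ± 1.11 (adjusted p = 0.788) for Fbp1, 0.05 ± 0.5 (adjusted p = 0.97) for Hk2, 0.58 ± 0.39 (adjusted p = 0.476) for Pkm, 0.87 ± 0.37 (adjusted p = 0.243) for Ldha, -0.15 ± 0.34 (adjusted p = 0.859) for Slc2a1, -1.62 ± 0.57 (adjusted p = 0.173) for Slc2a3 and 0.22 ± 0.26 (adjusted p = 0.711) for G6pdx. That of Fbp1 turned to 1.31 without the first Sca1-Cre library, and those of Hk2 and Slc2a1 also turned with single libraries left out.

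In Mb1-Cre against Sca1-Lmo2, 0 members were higher and 2 lower, beside 6.04% and 4.49% of all genes (429 and 514 genes by library totals). Hk1 was at 45.9 and 34.1 CPM in Mb1-Cre against 94.6, 85.2, 68.9 and 62.6 in Sca1-Lmo2 (-0.96 ± 0.26 (adjusted p = 0.038)), and Pdha1 at 80 and 66 against 144, 147, 97.7 and 135 (-0.84 ± 0.21 (adjusted p = 0.0337)). Neither gene overlapped between the groups. Both calls ended without either Mb1-Cre library or without Sca1-Lmo2 replicate 1 or 2 (0.0532 to 0.312 for Hk1, 0.0541 to 0.281 for Pdha1), and with its near-identical copy added the change of Pdha1 was -0.26 (adjusted p = 0.524). The remaining followed members changed by -1.92 ± 1.14 (adjusted p = 0.256) for Fbp1, -1.1 ± 0.5 (adjusted p = 0.153) for Hk2, 0.4 ± 0.37 (adjusted p = 0.468) for Pkm, 0.82 ± 0.34 (adjusted p = 0.125) for Ldha, -0.33 ± 0.32 (adjusted p = 0.501) for Slc2a1, -1.4 ± 0.55 (adjusted p = 0.104) for Slc2a3 and -0.17 ± 0.25 (adjusted p = 0.654) for G6pdx. The direction for Pkm turned to -0.06 without the first Mb1-Cre library.

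Other genes of the same pathways were listed too, and 39 of 54 were tested: 5 rose and 2 fell in Sca1-Cre, 6 rose and 4 fell in Sca1-Lmo2, and 8 rose and 3 fell in Mb1-Cre against WT, with medians of 0.08, 0.23 and -0.15, to be read beside the shares of all genes given above. Pgls, the lactonase between G6pdx and Pgd, rose by 1.85 in Sca1-Cre (adjusted p = 0.00766) and 2.5 in Mb1-Cre (adjusted p = 0.00172). Pgm3, an enzyme of amino sugar synthesis, rose by 1.17 in Sca1-Cre (adjusted p = 0.0127) and 1.24 in Sca1-Lmo2 (adjusted p = 0.00698). Pgm2, a phosphopentomutase, rose by 0.88 in Sca1-Lmo2 (adjusted p = 0.0103) and 1.24 in Mb1-Cre (adjusted p = 0.0034). In Sca1-Cre, H6pd, the glucose phosphate dehydrogenase of the endoplasmic reticulum, changed by -1.57 (adjusted p = 0.0129); in Sca1-Lmo2, Pgm2l1, which makes a bisphosphate cofactor of phosphoglucomutases, changed by -1.77 and the transporter Slc2a8 by 1.99 (adjusted p = 0.0121 for each); and in Mb1-Cre, Pdhb, the beta chain of pyruvate dehydrogenase, rose by 1.77 (adjusted p = 0.00243).

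Among 15 tested regulators of these pathways, 2 rose and 1 fell in Sca1-Cre, 4 rose and 2 fell in Sca1-Lmo2, and 3 rose and 2 fell in Mb1-Cre. These counts are to be read beside the shares of all genes given above. Notch1, the receptor that drives T cell fate and growth and feeds into Myc, rose by 2.52 in Sca1-Cre (adjusted p = 0.00792), 3.52 in Sca1-Lmo2 (adjusted p = 0.00131) and 2.66 in Mb1-Cre (adjusted p = 0.0045). Epas1, the hypoxia-inducible factor HIF2A, rose by 4.63 in Sca1-Cre (adjusted p = 0.00364), 3.7 in Sca1-Lmo2 (adjusted p = 0.00438) and 2.22 in Mb1-Cre (adjusted p = 0.0359), with 4.56 to 149 CPM in the 10 tumours and 1.31 to 2.35 CPM in WT. Myc, named after its values were seen, stood at 28.9 to 42.7 CPM in WT, at 104, 69.2 and 25.8 in Sca1-Cre, 77 to 206 in Sca1-Lmo2, 90.9 and 132 in Mb1-Cre and 92.6 in Aid-Cre. It rose by 2.19 in Sca1-Lmo2 (adjusted p = 0.00416) and 1.6 in Mb1-Cre (adjusted p = 0.0192) and did not pass in Sca1-Cre (0.85, adjusted p = 0.139). Its paralogue Mycn was at 1.01 to 2.28 CPM in WT and at 0 to 0.24 CPM in the tumours. Mycn passed the filter through WT alone, so its calls as lower, which make up 1 of the regulators that fell in each model, lend no support to those counts. In Sca1-Lmo2 Arrdc4, an inhibitor of glucose uptake, changed by -3.47 (adjusted p = 0.00225), as did its relative Txnip in Mb1-Cre by -1.9 (adjusted p = 0.0156). Of 17 tested hypoxia response genes that are no members, 3 rose and 2 fell in Sca1-Cre, 2 rose and 1 fell in Sca1-Lmo2, and 3 rose and 2 fell in Mb1-Cre. Here too the shares of all genes given above apply for reading the counts. Egln3, an oxygen sensor, rose by 1.4 in Sca1-Cre (adjusted p = 0.0385) and 1.74 in Sca1-Lmo2 (adjusted p = 0.0145), and Ero1l, an oxidase of the endoplasmic reticulum, by 0.92 in Sca1-Lmo2 (adjusted p = 0.031) and 1.41 in Mb1-Cre (adjusted p = 0.00713). In Sca1-Cre, Higd1a of mitochondria rose by 1.21 (adjusted p = 0.0269) and Ddit4, a brake on mTOR, by 1.44 (adjusted p = 0.0302). In Mb1-Cre, Ak4, a mitochondrial adenylate kinase, changed by 3.93 (adjusted p = 0.00233), at 3.47 and 10.3 CPM against 0.331 to 0.635 CPM in WT. Ak4 passed the filter through tumours alone, both Mb1-Cre libraries among them, so its call lends no support to the count there. Mxi1, a Myc antagonist, changed by -1.42 in Mb1-Cre (adjusted p = 0.00396) and by -0.64 in Sca1-Lmo2 (adjusted p = 0.0498).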

How the data were processed

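Libraries were made from total RNA with a non-stranded TruSeq kit and sequenced as paired reads of 100 bases. The authors aligned reads with TopHat 2.1.0 to mm10/GRCm38 and deposited raw counts per gene, for which the study names bamsignals. Counts appear to cover the whole gene span without regard to strand, so introns, overlapping genes and antisense genes may be included. This was not tested. Of 46948 lines, 46946 were kept, the others being exact repeats. Gene positions came from GENCODE M21 (46451 identifiers matched).

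Counts were scaled by TMM and tested with the quasi-likelihood test of edgeR 4.0.16 (R 4.3.3) over the 17087 genes that reached 1 CPM in 3 or more of the 14 libraries, with all 5 groups in 1 fit and Benjamini-Hochberg adjustment over all genes. The Rosa26-Lmo2+Aid-Cre library entered the fit but no test. The p-values measure the spread between these samples, which the labels number as replicates without naming the animals. No 2 libraries were repeats of each other. The fit was tested on simulated data.

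Named throughout are the members called in a comparison and 7 followed members (Fbp1, Hk2, Pkm, Ldha, Slc2a1, Slc2a3 and G6pdx), and from each other list the 3 genes with the smallest adjusted p. Members and lists were chosen with earlier results of these data known. Alternatives were other scalings and filters, DESeq2 1.42.0, limma-voom (limma 3.58.1), fits of only the groups compared, a replicate block, the sum of Sca1-Lmo2 replicates 1 and 3, and single libraries left out; adding near-identical copies was chosen after seeing the data.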

Additional observations from a re-analysis of the deposited data

Results flagged for a closer look

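Among 80 groups of 4 libraries in which each member was looked at (40 members in Sca1-Lmo2 and in WT), 5 had 1 library far from the other 3, where chance gives about 1 in 20. In WT these were Hk3 in replicate 2, at 0.675 CPM against 1.19 to 1.21 CPM, and Bpgm in replicate 4, at 29.3 CPM against 36.6 to 37.6 CPM. In Sca1-Lmo2, replicate 4 stood out for Eno2, at 5.25 CPM against 0.347 to 0.657 CPM, and for Pdk2, at 3.13 CPM against 0.136 to 0.26 CPM, and replicate 2 for Pdk3, at 25.1 CPM against 17.3 to 18.4 CPM.

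Differences between leukaemia models passed the test for 3 members: Mpc2 was lower in Sca1-Lmo2 than in Rosa26-Lmo2+Sca1-Cre by a log2 change of -1.22 (adjusted p = 0.0329), and in Rosa26-Lmo2+Mb1-Cre against Sca1-Lmo2 Hk1 changed by -0.96 (adjusted p = 0.038) and Pdha1 by -0.84 (adjusted p = 0.0337). Each comparison of 2 models is also a difference between their effects against the same WT libraries.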

How the results depend on the processing

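Of the 178 alternative values of counts, 123 were within 1.5 times the main value and 55 moved further; of those for single genes and medians, 1215 kept direction and side of the threshold, 186 lost and 12 gained the threshold, 46 moved and 22 reversed. The cause was not tested. Single-gene values are log2 changes.

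With library totals in place of TMM, 7 members were called in Sca1-Cre and 13 in Mb1-Cre against WT, 3 in Sca1-Lmo2 against Sca1-Cre and 1 in Mb1-Cre against Sca1-Lmo2, and Slc2a1 turned to -0.17 in Sca1-Cre and -0.27 in Mb1-Cre, G6pdx to -0.17 in Sca1-Cre and -0.08 in Mb1-Cre, Slc2a3 to -0.19 in Mb1-Cre, and Slc2a3 in Sca1-Lmo2 against Sca1-Cre to 0.14. Without a filter, 6 other pathway genes were called in Mb1-Cre (5264 of all genes), and at 5 CPM or more 2 members in Sca1-Lmo2 against Sca1-Cre (865 of all genes). With DESeq2, 19 members and 11 other pathway genes were called in Sca1-Cre (6188 of all genes) and 17 other pathway genes in Mb1-Cre (7346). It called 4, 3 and 6 members in Sca1-Lmo2 against Sca1-Cre, Mb1-Cre against Sca1-Cre and Mb1-Cre against Sca1-Lmo2. Calls over all genes rose there to 3603, 1333 and 3981 from 1690, 36 and 1800. With limma-voom, 1 member was called in Mb1-Cre against Sca1-Lmo2 (866 of all genes), Slc2a3 in Sca1-Lmo2 against Sca1-Cre was 0.1 and Slc2a1 in Mb1-Cre against Sca1-Cre 0.04. Fitting only the 2 groups gave 18 other pathway genes in Sca1-Lmo2 (4834 of all genes) and 17 in Mb1-Cre (8159) against WT. It gave 0 members in Sca1-Lmo2 against Sca1-Cre and in Mb1-Cre against Sca1-Lmo2, where 0 and 5 of all genes were called. Summing Sca1-Lmo2 replicates 1 and 3 gave 0 members in Sca1-Lmo2 against Sca1-Cre (709 of all genes) and 1 in Mb1-Cre against Sca1-Lmo2 (965). Adding near-identical copies gave 1 in Mb1-Cre against Sca1-Lmo2 (1800 of all genes).

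Replicate numbers do not pair the libraries: same-numbered libraries correlated at 0.093 to 0.15 between Sca1-Cre and WT, -0.399 to -0.091 between Sca1-Lmo2 and WT, and -0.089 and 0.115 between Mb1-Cre and WT. With the replicate block, the members called were 3 in Sca1-Cre (1354 of all genes), 13 in Sca1-Lmo2 (2521) and 9 in Mb1-Cre (3196) against WT. Main calls over all genes were 4589, 3815 and 6001. Between models the block gave 0 members in Sca1-Lmo2 against Sca1-Cre (8 of all genes) and in Mb1-Cre against Sca1-Lmo2 (2). Other pathway genes called were 1 in Sca1-Cre and 5 in Mb1-Cre. Slc2a3 in Mb1-Cre was -0.06 and Hk2 in Mb1-Cre against Sca1-Cre -0.03.

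When single libraries were left out, members called against WT were 5 to 20 in Sca1-Cre (1970 to 5019 of all genes) and 10 to 17 in Sca1-Lmo2 (2230 to 3855). With both Mb1-Cre libraries kept they were 12 to 17 in Mb1-Cre (4042 to 5464). In Sca1-Lmo2 against Sca1-Cre they were 0 to 2 (336 to 2161). With both Mb1-Cre libraries kept they were 0 to 1 in Mb1-Cre against Sca1-Cre (10 to 209) and 0 to 3 in Mb1-Cre against Sca1-Lmo2 (37 to 1856). Other pathway genes were 4 to 9 in Sca1-Cre, 6 to 10 in Sca1-Lmo2 and 3 to 10 in Mb1-Cre. Members on 1 side of all WT libraries were 8 to 17, and of these settings the share of all genes was counted only without the third Sca1-Cre library. Slc2a3 in Mb1-Cre against WT ran from -0.08 to 0.5. In Mb1-Cre against Sca1-Cre, Fbp1 ran from -3.13 to 1.31, Hk2 from -0.44 to 0.45 and Slc2a1 from -0.45 to 0.19, and Pkm in Mb1-Cre against Sca1-Lmo2 from -0.06 to 0.75. In Sca1-Lmo2 against Sca1-Cre, Pkm ran from -0.14 to 0.41, Ldha from -0.22 to 0.56, Slc2a1 from -0.13 to 0.51 and Slc2a3 from -0.65 to 0.52. Leaving out an Mb1-Cre library leaves 1, which is assumed to vary like the other groups.

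Depth limits Fbp1 and Aldoc, the 2 members under 1 CPM in WT on average. Mb1-Cre holds 2 libraries, so values there rest on few samples.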
